A study of Mus musculus with 3 samples.

Results

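The genes described here encode the ligands, the antagonist and the receptors of interleukin-1 (IL-1) and tumour necrosis factor (TNF) signalling. They are 10 of the 21438 genes with a row in at least 1 of the count tables. They were chosen by name, with earlier results of these data known. On the ligand side are Il1a, Il1b, Il1rn, Tnf and Il33, and on the receptor side Il1r1, Il1r2, Il1rap, Tnfrsf1a and Tnfrsf1b. All 10 had a row in both injured libraries. The uninjured table held rows for 8 of them. It had no row for Il1a and Il1rn, which were counted there as 0 UMIs, and its row for Il1b was 0 in every cell.

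IL-1 alpha (Il1a) and IL-1 beta (Il1b) bind the receptor encoded by Il1r1, which pairs with the accessory protein encoded by Il1rap and signals through MyD88 and IRAK kinases to NF-kB. The IL-1 receptor antagonist (Il1rn) occupies the same receptor without signalling, and the decoy receptor encoded by Il1r2 binds IL-1 but lacks the signalling domain. IL-33 is a nuclear member of the same family that is released from damaged cells and signals through the receptor encoded by Il1rl1, again with Il1rap. TNF acts on TNFR1 (Tnfrsf1a), which many cell types carry, and on TNFR2 (Tnfrsf1b), which is best known from immune and endothelial cells. In nerve, IL-1 and TNF are known as early signals of the segment distal to an injury, where they induce chemokines that draw in neutrophils and monocytes.

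The measurements are Drop-seq counts from single cells of the adult mouse sciatic nerve. Drop-seq is a droplet method that counts captured transcripts by unique molecular identifiers (UMIs). The series holds 3 libraries, 1 per group, and its title concerns mesenchymal precursor cells of the adult nerve in repair. The first injured library came from wild-type CD1 mice, taken 9 days after nerve resection from the distal segment, with myelin removed by beads. The other injured library, from the same time point, came from CD1 and C57BL/6 mice and was sorted by FACS; the sources used here do not give the gate. The uninjured library came from CD1 mice with bead removal of myelin, and only the cells that the authors predicted to be mesenchymal were analysed here. All nerves were dissociated with collagenase and trypsin. The sources used here do not say how many animals entered a library. None of the differences could be checked against replicates, and the ranges in brackets are 95% intervals that cover counting error only.

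The promoters of the members were read because several of the ligand genes share their class of highest level in the injured nerve. RefSeq (GRCm38.p6) gave 14 starts for the 10 genes. The letters TATAAA, the TATA box, began 35 to 20 bases before the start on the gene strand at 4 of these starts, those of Il1a, Il1b and Tnf and the second of Il33. The same was true of 1.84% of all 32851 starts in the table, and of no start of the other 6 members. This window was chosen after the sequences were seen. The 100 bases before each of these starts are shown, written 5′ to 3′ on the gene strand with the TATA box in capitals.
Il1a, chr2:129309973-129310072, minus strand: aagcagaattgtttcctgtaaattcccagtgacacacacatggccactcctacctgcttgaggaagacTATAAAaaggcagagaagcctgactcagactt
Il1b, chr2:129371140-129371239, minus strand: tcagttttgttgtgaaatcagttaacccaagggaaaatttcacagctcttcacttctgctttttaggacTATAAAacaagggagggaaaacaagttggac
Tnf, chr17:35202008-35202107, minus strand: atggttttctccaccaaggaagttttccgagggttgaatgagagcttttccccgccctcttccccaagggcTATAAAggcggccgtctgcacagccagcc
Il33, chr19:29945690-29945789, plus strand: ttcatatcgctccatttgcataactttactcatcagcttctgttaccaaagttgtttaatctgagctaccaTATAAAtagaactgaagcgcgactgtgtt

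Il1rn had no TATA box near any of its 3 starts. Its first start carried a form of the kappa B site (GGGA, any 4 bases, CC) 54 bases upstream, which is shown in capitals below. The 100 bases shown end 7 bases short of this start, so that transcribed bases are kept out. On either strand of the 250 bases before the start, 17.6% of all starts held these letters, so the match is common, and it is a description and not a binding site. Another form of the kappa B site (GGG, any 2 bases, TTTCC) was present in 1.41% of all such windows and, among the members, at the third start of Il1rn. The C/EBP letters TTGCNNAA (9.56% of all windows, both strands) were found before a start of Il1r1 and before the second start of Il33.
Il1rn, chr2:24336753-24336852, plus strand: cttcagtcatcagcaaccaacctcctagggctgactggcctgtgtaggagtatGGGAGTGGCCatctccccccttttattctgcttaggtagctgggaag

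The beads library held 4300 barcodes with 10859939 UMIs and the FACS library 2000 barcodes with 7122377 UMIs. The authors assigned 1289 barcodes of the injured beads library and 880 of the uninjured library to the mesenchymal cells. The beads and FACS libraries shared 1 barcode. Cells were clustered without the 10 genes and without the other genes of the pathway lists, and clusters were named "-like" from marker genes. In the beads library 9 classes were named, from 36 mast cell-like to 1022 mesenchymal-like cells, and 440 cells stayed unnamed. In the FACS library 6 classes were named, among them 709 mononuclear phagocyte-like cells (macrophages, monocytes and dendritic cells joined) and 16 neutrophil-like cells. Levels are given as CPM, the summed UMIs of a gene per 1000000 UMIs of the pooled cells, and each level is compared only with the same gene elsewhere.

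The first question was which cells of the injured distal nerve carried each gene. In the beads library 8 of the 10 genes were highest in the 123 neutrophil-like cells, a class that was highest for 9.27% of all genes reaching 50 CPM in some class. The other 2, Il33 and Il1r1, were highest in mesenchymal-like cells, against 7.93% of all genes. In the FACS library, where Il1a did not reach 50 CPM in any class, 4 members were highest in neutrophil-like cells (22.2% of all genes), 1 in mesenchymal-like cells (Il33, against 10.5% of all genes), Tnfrsf1b in phagocyte-like cells (7.59% of all genes), Il1r1 and Tnfrsf1a in endothelial cell-like cells and Il1rap in Schwann cell-like cells. Both neutrophil-like pools were shallow, with a median of 591 UMIs per cell in beads and 492 in FACS. When only barcodes with at least 500 genes were used, no neutrophil-like class was named, and 4 members were highest in phagocyte-like cells of each library. Shares of all genes are not given for that setting, nor for endothelial cell-like and Schwann cell-like cells. Those counts are therefore not read as a result about the members.

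**Figure D1:**
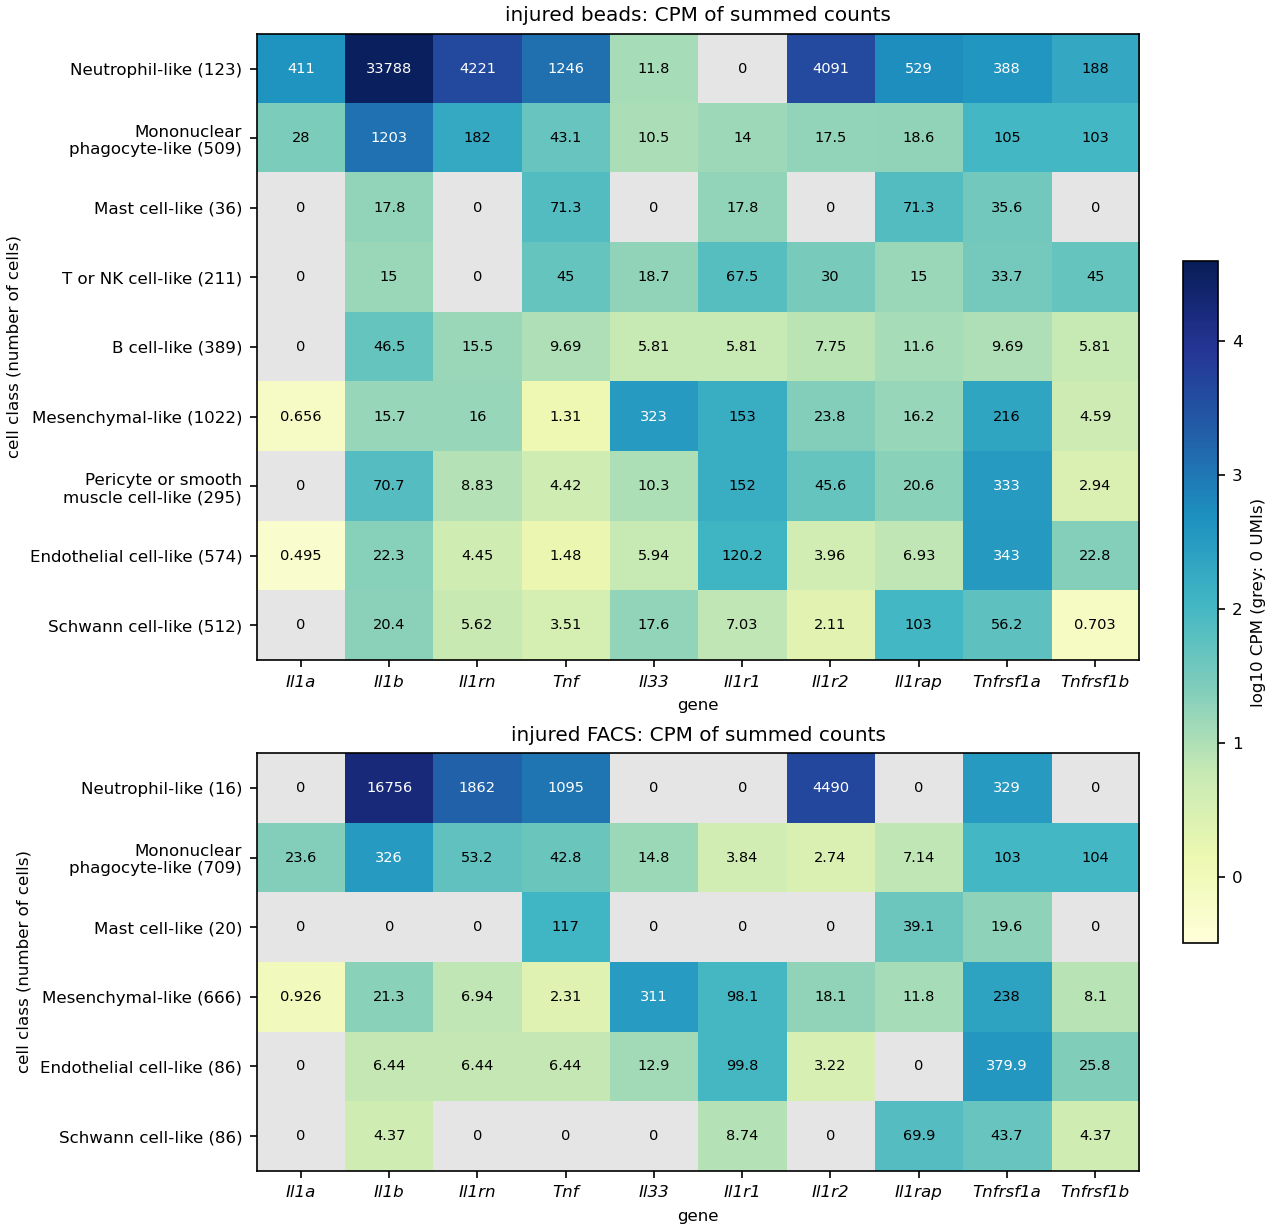
Level of each of the 10 genes in each named cell class of the injured beads library (top) and the injured FACS library (bottom), as CPM of summed counts printed in the cells and coloured on a log10 scale, with the number of cells in brackets and grey for 0 UMIs. Il1b stands at 33788 CPM in neutrophil-like cells of the beads library and at 16756 CPM in those of the FACS library, while Il33 reaches 323 and 311 CPM in mesenchymal-like cells and no more than 18.7 CPM in any other named class.

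Il1b, the secreted form of IL-1 that caspase-1 cleaves from its precursor, was the most sharply graded of the ligand genes in the injured nerve. In the beads library it stood at 33788 CPM (32564 to 35046) in neutrophil-like cells, where 99.2% of cells held a UMI, and at 1203 CPM (1130 to 1278) in phagocyte-like cells, where 27.7% did. These 2 classes together were clearly separated from the rest, the third being pericyte or smooth muscle cell-like cells at 70.7 CPM (52.1 to 93.7). Although neutrophil-like cells were 2.99% of the cells, they held 69.6% of the Il1b UMIs found in named classes, and phagocyte-like cells held 25%. In the FACS library the order was the same, with 16756 CPM (14206 to 19632) in neutrophil-like cells and 326 CPM (300.4 to 353) in phagocyte-like cells. There the far more numerous phagocyte-like cells held 70.5% of the UMIs and the 16 neutrophil-like cells 18.2%.

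Low Il1b counts were found in every other class. A UMI was present in 6.26% of mesenchymal-like, 5.75% of endothelial cell-like, 4.49% of Schwann cell-like, 4.37% of B cell-like and 4.07% of pericyte or smooth muscle cell-like cells of the beads library, with median depths of 3872, 1922, 2268, 764 and 1870 UMIs. The shares were lower in T or NK cell-like cells (1.9%, median depth 865) and mast cell-like cells (2.78%, median depth 1548). Counts of the neutrophil genes S100a8 and S100a9 were set beside them. For each UMI of these 2 genes, Il1b had 0.551 UMIs in neutrophil-like cells, 0.364 in T or NK cell-like, 0.407 in mesenchymal-like, 0.439 in Schwann cell-like, 0.615 in pericyte or smooth muscle cell-like, 0.625 in endothelial cell-like and 0.857 in B cell-like cells. Mast cell-like cells had 1 Il1b UMI and none of these 2 genes. In phagocyte-like cells the same ratio was 6.00. The low counts were not all spread evenly over cells: 1 pericyte or smooth muscle cell-like cell held 19 of the 48 UMIs of its class, and the highest count in a cell was 8 in endothelial cell-like, 7 in B cell-like and 3 in mesenchymal-like cells. Whether these UMIs come from the cells themselves or from free RNA was not tested, and no expression of Il1b in these classes is read from them. Mesenchymal-like cells of the FACS library had 2.56 Il1b UMIs per UMI of these genes, but 56 of their 92 Il1b UMIs lay in 1 cell.

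Il1rn, the receptor antagonist, followed Il1b across the classes of the injured nerve. In beads it stood at 4221 CPM (3795 to 4681) in neutrophil-like cells, 70.7% of which held a UMI, and at 182 CPM (154 to 213) in phagocyte-like cells. Mesenchymal-like cells came next with 16.0 CPM (12.5 to 20.1) and did not differ beyond counting error from B cell-like cells at 15.5 CPM (6.69 to 30.5). Unlike Il1b, however, Il1rn stood higher against S100a8 and S100a9 in mesenchymal-like cells, with 0.412 UMIs per UMI of these genes, than in neutrophil-like cells, with 0.0688. This was not particular to mesenchymal-like cells. The ratio was 0.907 in phagocyte-like, 0.286 in B cell-like, 0.125 in endothelial cell-like, 0.121 in Schwann cell-like and 0.0769 in pericyte or smooth muscle cell-like cells. T or NK cell-like and mast cell-like cells had 0 Il1rn UMIs. Within the mesenchymal-like class Il1rn was highest in the cluster led by Wif1, at 35.3 CPM, and the other 4 clusters lay between 0 and 4.57 CPM. The FACS library had it at 1862 CPM (1085 to 2981) in neutrophil-like and 53.2 CPM (43.2 to 65.0) in phagocyte-like cells.

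Il1a and Tnf were also highest in neutrophil-like cells of the beads library, at far lower shares of cells. Il1a, the form of IL-1 that is active without cleavage, had 35 UMIs in neutrophil-like cells (411 CPM, 287 to 572) and 24 in phagocyte-like cells (28.0 CPM, 17.9 to 41.6). All other classes of that library together held 4 Il1a UMIs, 3 of them in mesenchymal-like cells and 1 in endothelial cell-like cells. The FACS library gave 43 Il1a UMIs in phagocyte-like cells (23.6 CPM, 17.1 to 31.8) and 0 in neutrophil-like cells, a pool in which 3 counts would already be 329 CPM.

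Tnf, the founding ligand of its superfamily, stood at 1246 CPM (1020 to 1507) in neutrophil-like cells of the beads library, 25.2% of which held a UMI. Mast cell-like (71.3 CPM, 19.4 to 182), T or NK cell-like (45.0 CPM, 23.2 to 78.6) and phagocyte-like cells (43.1 CPM, 30.4 to 59.4) followed and could not be ordered, since their intervals overlapped. The FACS library gave 1095 CPM (525 to 2014) in neutrophil-like, 117 CPM (43.1 to 255) in mast cell-like and 42.8 CPM (33.8 to 53.4) in phagocyte-like cells. Structural cells had little: the 1022 mesenchymal-like cells of the beads library held 6 Tnf UMIs, 574 endothelial cell-like cells 3, and 512 Schwann cell-like cells 5.

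Il33 had the opposite distribution, with its counts almost confined to mesenchymal-like cells. It stood there at 323 CPM (307 to 339.9) in beads and 311 CPM (295 to 328) in FACS, with a UMI in 47.7% and 57.4% of cells. Of all Il33 UMIs in named classes, these cells held 96.0% in beads and 97.7% in FACS. The next class in beads, T or NK cell-like cells, had 5 UMIs (18.7 CPM, 6.09 to 43.7). Il1rl1, which encodes the IL-33 receptor, was highest in mast cell-like cells of the beads library at 2298 CPM (1919 to 2731), with 86.1% of 36 cells holding a UMI, and next in T or NK cell-like cells at 112 CPM.

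Il1r1, the signalling receptor of IL-1, was highest in structural cells other than Schwann cell-like cells. In beads it stood at 153 CPM (142 to 165) in mesenchymal-like, 152 CPM (124 to 184) in pericyte or smooth muscle cell-like and 120.2 CPM (106 to 136) in endothelial cell-like cells. The first 2 levels did not differ beyond counting error. T or NK cell-like cells followed at 67.5 CPM (40.0 to 107), phagocyte-like cells had 14.0 CPM, Schwann cell-like cells 7.03 CPM, and neutrophil-like cells 0 UMIs. The FACS library gave 99.8 CPM (67.8 to 142) in endothelial cell-like and 98.1 CPM (89.0 to 108) in mesenchymal-like cells, again with overlapping intervals, while Schwann cell-like cells had 8.74 CPM and phagocyte-like cells 3.84 CPM. Among the pericyte or smooth muscle cell-like clusters of the beads library, the cluster led by the pericyte gene Rgs5 had 197 CPM and the cluster led by the smooth muscle gene Myh11 had 44.4 CPM.

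Il1r2, the decoy receptor, was instead a gene of neutrophil-like cells, at 4091 CPM (3673 to 4544) in beads and 4490 CPM (3222 to 6091) in FACS. A UMI was found in 69.1% and 62.5% of these cells. Pericyte or smooth muscle cell-like cells of the beads library followed at 45.6 CPM (31.0 to 64.8), then T or NK cell-like cells at 30 CPM (12.9 to 59.1) and mesenchymal-like cells at 23.8 CPM (19.6 to 28.7), and neighbours in this order had overlapping intervals. Within the mesenchymal-like class Il1r2 was highest in the cluster led by Inmt and Comp, at 76.1 CPM, where it had 1.23 UMIs per UMI of S100a8 and S100a9 against 0.0667 in neutrophil-like cells. The ratio was also above that of neutrophil-like cells in other classes, with 0.727 in T or NK cell-like and 0.397 in pericyte or smooth muscle cell-like cells. Schwann cell-like cells, with 0.0455, lay below it.

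Il1rap, the accessory chain shared by the IL-1 and IL-33 receptors, was high in neutrophil-like cells of the beads library at 529 CPM (386 to 708) and had its second level in Schwann cell-like cells at 103 CPM (86.6 to 121). Mast cell-like cells followed at 71.3 CPM (19.4 to 182, from 4 UMIs), with an overlapping interval. Il1rap was present in 19.1% of Schwann cell-like cells, which held 45.2% of the UMIs in named classes. Schwann cell-like cells of the FACS library stood highest at 69.9 CPM (40.0 to 114), while the neutrophil-like pool had 0 UMIs. The interval of mast cell-like cells there (39.1 CPM, 4.74 to 141, from 2 UMIs) overlapped that of Schwann cell-like cells. Schwann cell-like cells thus carried Il1rap with few counts of Il1r1, 10 UMIs in beads and 2 in FACS.

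Tnfrsf1a, which encodes TNFR1, was the most widely spread of the receptors. In beads it stood at 388 CPM (267 to 545) in neutrophil-like, 343 CPM (318 to 369.8) in endothelial cell-like and 333 CPM (291 to 379) in pericyte or smooth muscle cell-like cells, which did not differ beyond counting error. Mesenchymal-like cells had 216 CPM (202 to 229.6) and phagocyte-like cells 105 CPM. B cell-like cells had 9.69 CPM from 5 UMIs. The FACS library gave a like order, with 379.9 CPM (314 to 455) in endothelial cell-like, 238 CPM (224 to 253) in mesenchymal-like and 103 CPM (88.5 to 118) in phagocyte-like cells.

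Tnfrsf1b, which encodes TNFR2, kept to immune and endothelial cells. In beads it stood at 188 CPM (108 to 305) in neutrophil-like and 103 CPM (82.2 to 126) in phagocyte-like cells, with overlapping intervals, followed by T or NK cell-like cells at 45.0 CPM (23.2 to 78.6) and endothelial cell-like cells at 22.8 CPM (16.7 to 30.4). Mesenchymal-like cells had 4.59 CPM and Schwann cell-like cells a single UMI (0.703 CPM). Phagocyte-like cells of the FACS library had 104 CPM (90 to 120.2) and held 81.2% of the UMIs.

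Across the 9 named classes of the beads library, the genes whose levels followed Il1b most closely were Clec4e and Clec4d, receptors of the C-type lectin family (Pearson r of log2 CPM 0.996 and 0.995, 10 CPM added, among 7974 genes). For Tnf the closest gene was the chemokine Ccl4 (0.982), for Il33 Serpinf1 (0.975), which was among the markers used to name the class, and for Il1r1 Ctgf (0.956). These values rest on 9 pools of 1 library and on the large distance between neutrophil-like cells and the rest.

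Within phagocyte-like cells Il1b and Il1a separated the clusters, and Tnf and Tnfrsf1b did so far less. In beads the cluster led by Ccr2, a monocyte receptor, which also had the granule genes Mpo and Elane among its leading genes, had 2002 CPM of Il1b and the cluster led by Mmp12 and Gpnmb had 627 CPM. Of the FACS clusters, the one with Ccr2 and MHC class II genes had 943 CPM, the one led by Ccl8 and Pf4 160.5 CPM and the Gpnmb cluster 51.7 CPM. Both libraries thus had more Il1b in Ccr2 clusters than in Gpnmb clusters. Il1a ran the other way, with 0 CPM against 48.1 CPM in beads and 5.68 against 34.1 CPM in FACS. Il1rn did not follow Il1b over these clusters. In beads it had 50 UMIs beside 719 of Il1b in the Ccr2 cluster, and 106 beside 313 in the Gpnmb cluster. In FACS it had 29 UMIs beside 498 of Il1b in the Ccr2 cluster, 14 beside 43 in the Pf4 cluster and 54 beside 53 in the Gpnmb cluster. Tnf lay between 27.3 and 64.4 CPM and Tnfrsf1b between 80.7 and 127 CPM over the 5 clusters.

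**Figure D2:**
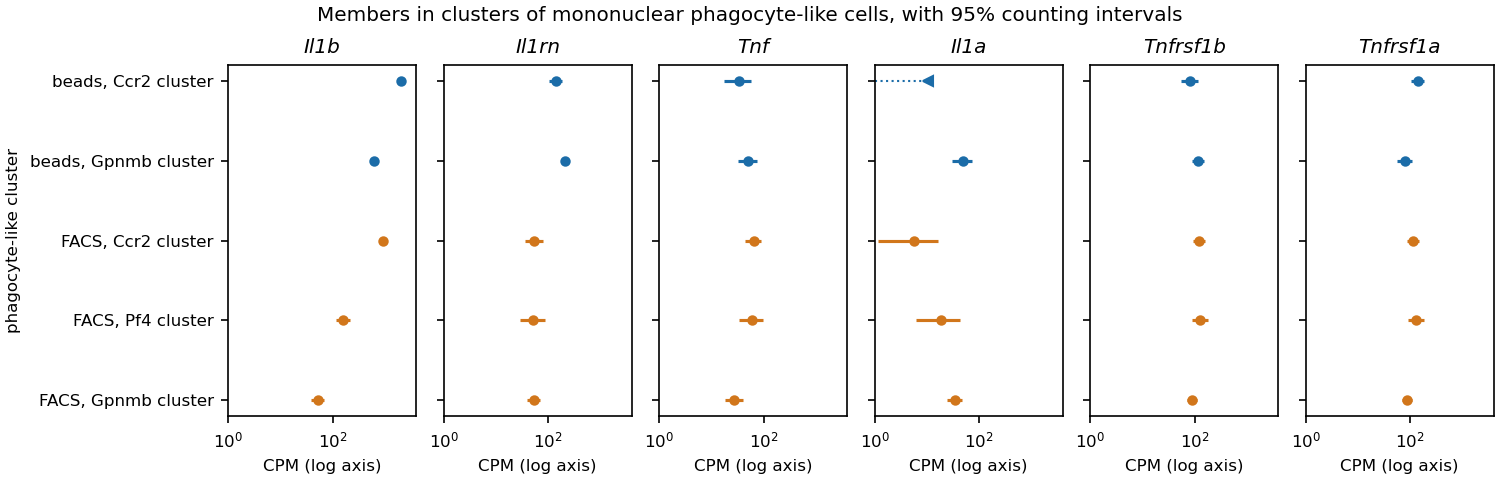
Level of 6 of the genes in the 5 clusters of mononuclear phagocyte-like cells, in CPM on a log axis with 95% counting intervals, beads in blue and FACS in orange (arrowhead: 0 UMIs, drawn at the upper limit). Il1b runs from 2002 CPM in the Ccr2 cluster of the beads library to 51.7 CPM in the Gpnmb cluster of the FACS library, while Tnfrsf1b lies between 80.7 and 127 CPM in all of them.

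The antagonist was found mainly in the phagocyte-like cells that also held its agonist, in the beads library. With each cell thinned to 1000 UMIs and 235 shallower cells left out, Il1rn was detected in 20 of 69 cells with Il1b (29.0%, 18.7 to 41.2) and in 6 of 205 cells without it (2.93%, 1.08 to 6.26). Leaving out cells with any S100a8 or S100a9 UMI gave 23.2% of 56 and 2.42% of 165. In the FACS library the shares were 3.70% of 81 cells with Il1b and 2.36% of 466 without, and their intervals overlapped. Cells of 1 library are not replicates, and whether the libraries differ in this was not tested.

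The beads and FACS libraries were then compared within a class. They differ in isolation and in strain, and these cannot be told apart. A member was called higher or lower by a rule of size: at least 10 CPM in a pool, a ratio of at least 2-fold and an interval that leaves out 1. In phagocyte-like cells all 10 members passed the level floor and 5 were higher in beads, against 7.45% of 8844 genes, and 0 were lower, against 2.58%. Il1b had a log2 ratio of 1.88 (1.74 to 2.03), Il1rn 1.77 (1.40 to 2.15) and Il1r2 2.67 (1.14 to 4.49), the last from 15 and 5 UMIs. Il1r1 (1.86, 0.40 to 3.45) and Il1rap (1.39, 0.24 to 2.56) rested on 7 to 16 UMIs a pool. The TNF genes had nearly the same level in both libraries, with log2 ratios of 0.01 for Tnf (-0.60 to 0.59), 0.03 for Tnfrsf1a and -0.02 for Tnfrsf1b. S100a8 and S100a9 moved with the IL-1 genes, at 200.4 CPM in phagocyte-like cells of beads and 26.3 CPM in those of FACS, and their part in the result was not tested.

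In neutrophil-like cells 9 members passed the floor, 2 were higher in beads (0.38% of 7629 genes) and 0 lower (2.74%). These were Il1b with a log2 ratio of 1.01 (0.78 to 1.26) and Il1rn with 1.18 (0.48 to 1.98), while Il1r2 had -0.13 (-0.60 to 0.37). The FACS pool held only 9131 UMIs, in which 3 counts are 329 CPM. The median log2 ratio over all genes past the floor was -1.41. At this depth few genes can be called higher in beads, so the count of 2 is not read against the share of all genes. In mesenchymal-like cells 7 passed, 1 was higher in beads (2.51% of 9560 genes) and 0 lower (2.96%). That gene was Il1rn at 16.0 against 6.94 CPM, and Il33 had a log2 ratio of 0.05 (-0.05 to 0.16).

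The central comparison of the series set mesenchymal cells of injured nerve against those of uninjured nerve. Among the authors' mesenchymal cells, 7 of the 10 members passed the floor. Higher in the injured cells by the rule of size were 3 of them, Il1r1, Il1b and Il1rn, against 10.1% of 9783 genes, and 0 were lower, against 6.9%. Il1r1 had 721 UMIs in 1289 injured cells and 71 in 880 uninjured cells, or 152 CPM (141 to 163) against 32.7 CPM (25.6 to 41.3), a log2 ratio of 2.21 (1.86 to 2.59). The share of cells with an Il1r1 UMI was 26.5% against 6.93%. The intervals of the 2 libraries were far apart.

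Il1b had 94 UMIs in the injured and 0 in the uninjured cells, which set against 3 counts in the uninjured pool is at least 14.3-fold higher. Il1rn, which has no row in the uninjured table, had 83 against 0 and was at least 12.6-fold higher. Both were thinly spread, in 5.9% and 4.19% of the injured cells, and the Il1b counts are of the low kind described above, so the difference is one of counted UMIs only. The 10 neutrophil markers moved with them. All 10 were detected in the injured cells, summing to 57.5 CPM, against 3 detected and 3.23 CPM in the uninjured cells. Of the rest, Ly6g, Mmp9 and Ltf were at 0 in the uninjured cells. Retnlg, Cxcr2, Ngp and Camp had no row there and were counted as 0. The 12 macrophage and monocyte markers summed to 308 CPM against 25.8 CPM. Adgre1, C1qa and C1qc were at 0 in uninjured cells, and Fcgr1 had no row there. A stricter set was then formed of the cells with fewer than 2 UMIs from the summed markers of each other class used for this, 630 injured and 454 uninjured. This set still held such markers: in its injured cells the neutrophil list summed to 40.2 CPM and the macrophage and monocyte list to 128 CPM, against 0 and 14.4 CPM in its uninjured cells. The erythroid, adipocyte and skeletal muscle cell lists were not used to form this set or the like sets below. Erythroid markers summed to 101 CPM in the injured and 3459 CPM in the uninjured cells of the stricter set. Il1r1 passed there with a log2 ratio of 1.81, and so did Il1b, with 28 UMIs (22.5 CPM) against 0, at least 6.27-fold higher. Il1rn had 12 UMIs against 0, at least 2.69-fold higher, but its 9.65 CPM lay just under the floor of 10 CPM, so it was not called. The part of the markers in these results was not tested.

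Il33 pointed downward without passing the rule. It had 319 CPM (303 to 335) in injured and 559 CPM (528 to 592) in uninjured cells, a log2 ratio of -0.81, and passed as lower in the stricter set (-1.11, 238 against 512 CPM). Tnfrsf1a stood at 218 CPM (205 to 232) against 114 CPM (101 to 129), a log2 ratio of 0.93. Il1r2 (24.4 against 17.1 CPM, 0.52), Il1rap (16.2 against 14.3 CPM, 0.18) and Tnfrsf1b (4.85 against 5.07 CPM, -0.07) lay closer together. Tnf had 8 UMIs in the injured and 3 in the uninjured cells, and Il1a 3 and 0, too few for a comparison at this depth.

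The FACS mesenchymal-like cells shared the uninjured library as their reference and differed from it in isolation and strain as well. There 6 members passed the floor, 3 were higher (11.3% of 9734 genes) and 0 lower (8.35%). Il1r1 had 98.1 against 32.7 CPM (log2 ratio 1.58, 1.22 to 1.97) and Tnfrsf1a 238 against 114 CPM (1.06, 0.86 to 1.27), which fell to 0.97 with TMM scaling and then did not pass. Il1b had 92 UMIs against 0, but 56 of the 92 lay in 1 cell. Without that cell 36 UMIs remained, at least 6.04-fold higher than 0 UMIs in the uninjured cells, but at 8.35 CPM they lay under the floor and the gene was not called. Il33 stood at 311 against 559 CPM, a log2 ratio of -0.84. Macrophage and monocyte markers summed to 1144 CPM in these cells. In the 70 cells with fewer than 2 UMIs of each other class's markers, Il1r1 had 8 UMIs (66.7 against 43.1 CPM), a log2 ratio of 0.63 (-0.68 to 1.76), and did not pass.

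Injured and uninjured mesenchymal cells were next clustered together, and clusters were named by markers of the sheaths of the nerve, again without the members. Endoneurial-like cells (244 injured, 426 uninjured), which lie among the axons, showed the widest set of differences. There 7 members passed the floor and all 7 differed: 6 were higher in the injured cells, against 10.4% of 9266 genes, and 1 was lower, against 9.64%. Il1r1 had 350 UMIs in injured and 24 in uninjured cells, 216 CPM (194 to 239.8) against 21.6 CPM (13.8 to 32.1), a log2 ratio of 3.32 (2.72 to 3.98). With cells thinned to 1000 UMIs, 17.2% and 1.83% of them held it, against 55.3% and 4.69% at full depth.

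The accessory and regulatory chains lay on the same side in these endoneurial-like cells. Il1rap had 31.5 against 9.9 CPM (log2 ratio 1.67, 0.71 to 2.76), Il1r2 38 UMIs against 1 (4.70, 2.14 to 10.04) and Tnfrsf1a 262 against 123 CPM (1.09, 0.80 to 1.37). Il1rn had 62 UMIs in 40 of 244 injured cells, 38.3 CPM (29.3 to 49.0), against 0 in 426 uninjured cells, at least 14.2-fold higher. Il1b had 19 UMIs against 0. The only member that was lower was Il33, with 392 CPM (363 to 424) against 883 CPM (828 to 939.9), a log2 ratio of -1.17 (-1.32 to -1.02). Macrophage and monocyte markers summed to 233 CPM in the injured and 13.5 CPM in the uninjured endoneurial-like cells, and neutrophil markers to 51.8 and 2.7 CPM; their part in the results was not tested. Restricted to the 64 injured and 192 uninjured cells with fewer than 2 UMIs of each other class's markers, Il1r1 (log2 ratio 2.92), Il1rap (2.59, from 9 and 2 UMIs), Tnfrsf1a (1.23) and Il33 (-2.13) still passed. In these few cells the uninjured pool had 0 UMIs of the other 3 genes. Il1rn had 10 UMIs (37.9 CPM) and Il1r2 7 UMIs (26.5 CPM), at least 4.45-fold and 3.11-fold higher, and both passed. Il1b had 3 UMIs (11.4 CPM) and was not called.

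Epineurial-like cells (205 injured, 382 uninjured), from the outer sheath, gave fewer differences. There 8 members passed the floor, 3 were higher (5.1% of 9338 genes) and 0 lower (2.09%). Neutrophil markers summed to 190.4 CPM in the injured and 2.2 CPM in the uninjured epineurial-like cells, and macrophage and monocyte markers to 205 and 24.2 CPM. Their part in the results was not tested. Il1r1 stood at 123 CPM (from 51 UMIs) against 51.7 CPM, a log2 ratio of 1.25 (0.65 to 1.85), and the other 2 were Il1b with 19 UMIs against 0 and Il1rn with 8 against 0, all 8 in 1 cell. Il33 lay on the other side than in endoneurial-like cells, at 255 against 159 CPM (log2 ratio 0.68, 0.30 to 1.05), but did not pass. Tnfrsf1a was level at 98.8 against 106 CPM. Restricted to the 123 injured and 233 uninjured cells with fewer than 2 UMIs of each other class's markers, Il33 had 189 against 165 CPM. Its log2 ratio there was 0.20 (-0.40 to 0.77), within counting error of no difference. In the same cells Il1r1 (1.35) passed, Il1b passed on 4 UMIs against 0, and Il1rn had 0 UMIs in both pools. Uninjured epineurial-like cells already held Il1r2, with 39.6 CPM (27.7 to 54.8) against 0.9 CPM in uninjured endoneurial-like cells.

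Perineurial-like cells (70 injured, 66 uninjured) had an Il33 level of 519 CPM after injury and of 629 CPM without it. Only 3 members passed the floor there, 1 was higher (Tnfrsf1a, 196 against 86.7 CPM, log2 ratio 1.17, against 2.83% of 9595 genes) and 0 lower (4.28%). A further 666 injured cells formed a class with markers of differentiating mesenchyme that had only 5 uninjured cells, so no comparison was made. They held Il1r1 at 122 CPM and Il33 at 264 CPM. In uninjured nerve Il33 thus stood at 883 CPM in endoneurial-like, 629 CPM in perineurial-like and 159 CPM in epineurial-like cells, with intervals that did not overlap. Whether the ratios differ between the subclasses was not tested.

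**Figure D3:**
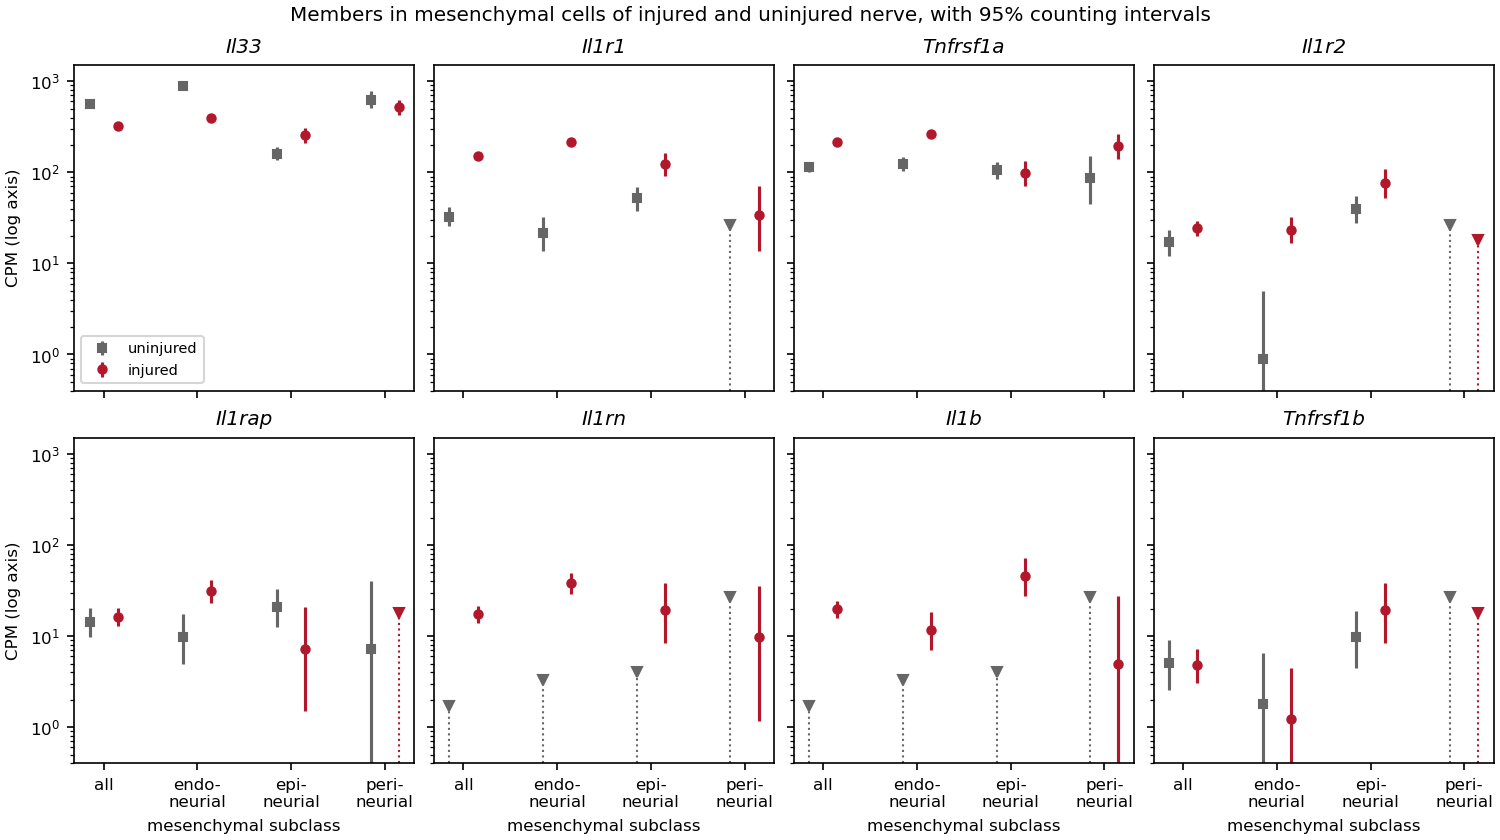
Level of 8 of the genes in all mesenchymal cells and in 3 of their subclasses, uninjured (grey squares) and injured (red circles), in CPM on a log axis with 95% counting intervals (downward triangles: 0 UMIs, drawn at the upper limit). In endoneurial-like cells Il1r1 stands at 216 CPM after injury and 21.6 CPM without it, and Il33 at 392 and 883 CPM, whereas in epineurial-like cells Il33 stands at 255 and 159 CPM.

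The other genes of the pathway were grouped by function into lists, which were also chosen with earlier results of these data known. Of 24 genes that IL-1 and TNF are known to induce in stromal cells, 19 passed the floor in all mesenchymal cells, 10 were higher in the injured cells (10.1% of all genes) and 0 lower (6.9%). The median of their log2 ratios was 1.02, against 0.19 over all genes tested. In the FACS mesenchymal-like cells against the same uninjured cells, 18 passed, 7 were higher (11.3% of all genes) and 1 lower (8.35%). The median there was 0.60, against 0.15 over all genes. Of the 20 that reached 50 CPM in a class of the beads library, 9 were highest in neutrophil-like and 5 in mesenchymal-like cells. Among all genes that reached 50 CPM there, these shares were 9.27% and 7.93%. In endoneurial-like cells 14 of 19 were higher (10.4% of all genes) and 1 lower (9.64%), with a median of 2.21 against 0.06 over all genes. The chemokine Ccl2, which attracts monocytes, had 3395 against 175 CPM there (log2 ratio 4.27) and the neutrophil chemokine Cxcl5 294 against 4.5 CPM (6.03). The acute phase gene Saa3, which has no row in the uninjured table, had 734 UMIs against 0. The matrix metalloproteinase gene Mmp3 had 356 UMIs against 1. The single lower gene was Vcam1, an adhesion molecule, at 17.3 against 43.2 CPM (-1.32).

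In epineurial-like cells 14 genes of the same list passed the floor, 2 were higher (5.1% of all genes) and 1 lower (2.09%), with a median of 0.22 against 0.16 over all genes. Cxcl2 (34 UMIs against 1) and Ccl2 (198 against 41.8 CPM) were higher, and Cxcl1 was lower (113 against 265 CPM). Cxcl2 stood at 32742 CPM in neutrophil-like cells of the same library, and the neutrophil markers that moved with it in epineurial-like cells are given above; their part in the result was not tested. Complement C3 stood at 1908 against 1715 CPM there, and at 798 against 54.9 CPM in endoneurial-like cells. Some of these genes were thus already present in uninjured epineurial-like cells.

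**Figure D4:**
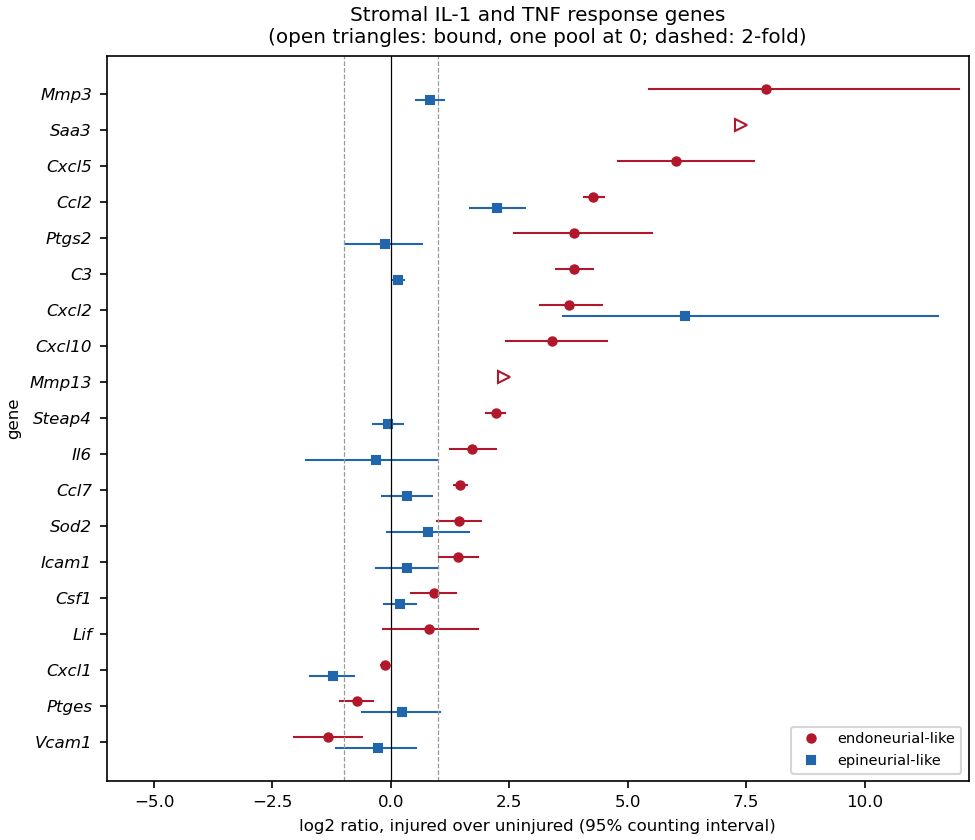
Log2 ratio of injured over uninjured level for the stromal IL-1 and TNF response genes that reach 10 CPM, in endoneurial-like cells (red circles) and epineurial-like cells (blue squares), with 95% counting intervals (the longest is clipped at the axis end). The dashed lines mark a 2-fold difference and open triangles are lower bounds where the uninjured pool has 0 UMIs. Ccl2 lies at 4.27 and 2.24, and C3 at 3.86 and 0.15.

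Among NF-kB subunits and feedback inhibitors, 3 of 12 genes past the floor were higher in all mesenchymal cells (10.1% of all genes) and 5 of 12 in endoneurial-like cells (10.4%), with 0 lower in both (6.9% and 9.64%). In the FACS comparison 3 of 11 were higher (11.3%) and 0 lower (8.35%), but the median log2 ratio was 0.12, against 0.15 over all genes. Epineurial-like cells had 1 of 11 higher (5.1%) and perineurial-like cells 0 of 13 (2.83%), with 0 lower in both (2.09% and 4.28%). Of the 14 genes of this list that reached 50 CPM in a class of the beads library, 9 were highest in neutrophil-like and 0 in mesenchymal-like cells. The shares over all such genes were 9.27% and 7.93%. Tnfaip3, which encodes the inhibitor A20, had 95.6 against 10.8 CPM in endoneurial-like cells (log2 ratio 3.15, 2.30 to 4.13), Bcl3 76.5 against 17.1 CPM (2.16) and Nfkbia, the inhibitor of NF-kB that is itself a target, 1159 against 389.7 CPM (1.57). The counts that follow are for endoneurial-like cells, where 10.4% of all genes were higher and 9.64% lower. Of 12 genes of the IL-1 receptor pathway 2 were higher (Irak3, 1.31, and Chuk, 1.09) and 1 lower (Irak2, -2.35), with a median of 0.12. Of 8 genes of the TNF receptor pathway 0 were higher and 1, Traf5, was lower on 3 and 12 UMIs. Of 6 genes for release and processing 4 were higher, among them Adam17 (1.52), which sheds TNF and its receptors, and Timp3 (1.67), its inhibitor.

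Other receptors of the TNF superfamily included Tnfrsf12a, the TWEAK receptor, at 108 against 17.1 CPM in endoneurial-like cells (2.66) and Ngfr, the p75 neurotrophin receptor, at 17.9 against 126 CPM (-2.82). In that list 4 of 7 genes were higher (10.4% of all genes) and 1 lower (9.64%). Ngfr was highest in Schwann cell-like cells of the beads library, at 1012 CPM. Schwann cell markers summed to 81.4 CPM in the injured and 455 CPM in the uninjured endoneurial-like cells. Their part in the Ngfr difference was not tested. Of 3 other TNF superfamily ligands 0 were higher and 2 lower, Tnfsf12 (-1.07), the ligand of Tnfrsf12a, and Eda (-1.11). Of 10 other IL-1 family genes a single gene passed the floor and it was not called.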

How the data were processed

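For each of 3 Drop-seq libraries the authors deposited raw UMI counts, with mm10 as the build per the submitters' processing notes. The sources used here name neither an aligner nor a counter, and do not say how mesenchymal cells were predicted. The members and gene lists were chosen with earlier results of these data known. Barcodes with at least 200 genes were clustered with scanpy 1.11.5 (2000 variable genes without members and list genes, 30 components, 15 neighbours, Leiden resolution 0.8). Clusters were named by marker score; no doublet caller was used, so doublets remain. Counts summed over a class gave CPM with exact Poisson intervals, shares exact binomial (Clopper-Pearson) intervals, and ratios exact conditional binomial intervals at 95%. A pool at 0 was set against 3 counts. The ratio function was tested on simulated pools. Each group is 1 library, so nothing was tested and p-values are absent. Named genes were all members and, per list, up to 4 genes past the rule of size with the largest ratios, or up to 3 with the highest class level; others named were chosen after their values were seen. TMM (edgeR 4.0.16) and DESeq2 1.42.0 size factors served as other scalings in R 4.3.3. Promoters are from RefSeq, and exons used to keep transcribed bases out from GENCODE vM21.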

Additional observations from a re-analysis of the deposited data

How the results depend on the processing

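Of 112 counts recomputed under an alternative, 92 stayed within 1.5 times the reported value, and no value changed sign as a call. With a floor of 50 CPM, 324 genes were higher and 283 lower in injured beads mesenchymal cells, and 432 and 328 in FACS mesenchymal-like cells; 1 member, Il1r1, stayed higher in the first comparison. With no floor 1094 genes were lower in the first. Without cells holding at least 2 UMIs of another class's markers, 1 member (Il33) was lower in both of these comparisons. Among the subclasses Il33 was then lower in endoneurial-like cells only, with log2 ratios of 0.20 in epineurial-like and 0.08 in perineurial-like cells. In the FACS comparison 1 member (Tnfrsf1a) was higher and 296 genes were lower. In perineurial-like cells 0 members were higher, a setting chosen after seeing the data. The cause was not tested. With subclasses from the highest marker score, 1 member was lower in epineurial-like cells (Il1rap) and 2 were higher in perineurial-like cells. With barcodes of at least 500 genes no neutrophil-like class was named, and 4 members were highest in phagocyte-like cells of each library. Mesenchymal-like cells were then highest for 1 member in beads and 2 in FACS, as at resolution 0.4, and for 1 in beads at resolution 1.6. Shares of all genes are not given for any of these alternative settings. Their counts of members are therefore not read as a result about the members. In beads against FACS mesenchymal-like cells, Il1b moved from -0.44 to 0.91 without 1 cell, on the log2 scale. TMM and DESeq2 factors lowered the injured ratios of all genes by 0.13 and 0.12 on the log2 scale, and the reported ratios carry no such shift. No paired analysis was possible because each group is 1 library. Depth limits Il1a, Tnf and Tnfrsf1b in mesenchymal cells, at 3, 8 and 23 UMIs in the injured pool, and the 16 neutrophil-like cells of the FACS library.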

Other observations

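In the FACS library a cluster of 37 cells led by Mmp12, Mmp9 and Cxcl3 stayed unnamed and held Tnfrsf1b at 285 CPM, Il1rn at 225 CPM, Tnf at 148 CPM and Il1a at 65.2 CPM, each above the phagocyte-like clusters of that library, while its Il1b stood at 59.3 CPM. Mast cell-like cells of the beads library, 36 cells, held 4 Tnf UMIs and 116 UMIs of Ccl2 (2067 CPM, 1708 to 2479). Each group is 1 library, so differences between animals, isolation, strain and injury cannot be told apart from library differences.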
